A study of Drosophila melanogaster with 23 samples.

Results

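The replication-dependent histone genes of Drosophila melanogaster are the tandem copies whose FlyBase symbols start with the histone's name and a colon, as in His1:CG33801 for H1 or His4:CG33907 for H4. Matched by these symbols alone, with no measured value, they made up 23 H1 copies, 20 H2A copies, 23 copies each of H2B and H3, and 22 H4 copies among the 17493 rows of each deposited table. The rule itself was set with earlier results of these data known. RNA was sequenced from 23 samples of whole embryos aged 3.5–4 h, 4.5–5 h, 5.5–6 h or 6.5–7 h after egg laying at 25 °C. Of these samples 12 were w1118, the wild type, with no other allele named in the labels, and 3 were taken at each age. The other 11 carried Df(2L)HisC, a deletion of the histone cluster, on both second chromosomes, one with the P{GAL4-twi.2xPE} driver, in which a twist enhancer drives GAL4, and the other with the P{UAS:eYFP}AH2 reporter. Among these, 2 were taken at 4.5–5 h and 3 at each other age. By its design text, the study set the expression of wild type embryos against that of embryos unable to make new histones.

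The 23 value columns of each table carry no name, so no column was given to a genotype, an age or a replicate, and no comparison between groups was made. Each column is treated as 1 unidentified whole embryo library and is called by its place in the table, from column 1 to column 23. Values are given as the lowest, the median and the highest column, without an SD, since these columns are not replicates of 1 group. In whole embryos, fewer cells that express a gene and less RNA per cell cannot be told apart.

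Core histones H2A, H2B, H3 and H4 form the protein spool of the nucleosome, and the linker histone H1 binds the DNA where it enters and leaves. The genes of the cluster are transcribed mainly in S phase, when new chromatin has to be packed. Their messages end in a stem-loop that binds Slbp in place of a poly(A) tail, and are made at a nuclear structure known as the histone locus body. Early fly embryos also receive histone protein and histone messages from the mother.

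The annotated cluster lay on chromosome 2L between positions 21416953 and 21541681 of the dm6 assembly, counted from 1. Every histone gene of the cluster was annotated with 1 exon. H1, H2A and H3 lay on the plus strand, and H2B and H4 on the minus strand. Counted from one H1 gene to the next, the cluster held 23 units, and 19 of them carried H1, H2B, H2A, H4 and H3 in that order. Units 1, 3 and 5 lacked an annotated H2A gene, and unit 23 lacked H4. The starts of neighbouring H1 genes were 5045 bp apart at the median and 4843 bp at the closest. After unit 5 the distance was 14041 bp, against at most 5151 bp elsewhere. Exon lengths were 1023 bases for every H1 copy, 595 for H2B and 529 for H3, between 476 and 493 for H2A, and between 412 and 528 for H4. Copies of a class are near-identical in sequence, so their reads can be shared, moved between copies or discarded, and the value of any one row need not be the level of that gene. The classes were therefore described first as sums over all their copies, which do not bring back discarded reads. In every class these sums left a gap, with 11 columns below it and 12 above, and the median column was the lowest of the 12. The median of a class sum is thus not a typical level, and it moves towards the middle of the gap when a column above the gap is left out.

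H1 RNA had the highest median of the 5 classes and a wide range over the columns. The sum of the 23 H1 copies was 1.70 TPM (a transcript level scaled for gene length and to the same total in every library) in the lowest column, 210 TPM in the median column and 390 TPM in the highest, column 7. Leaving out 1 of the 12 columns above the gap (5 to 8, 13 to 16 and 20 to 23) lowered the median, to 110 TPM at the least. The ratio of highest to lowest was 229.3, and it was 148 without column 12, which held the lowest value. H1 was the largest class in 19 of 23 columns, and H3 in the other 4.

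H3, which forms the central tetramer of the nucleosome with H4, was the next class by median. Its summed level was 3.25 TPM in the lowest column, 55.0 TPM in the median column and 108 TPM in the highest, column 22, a ratio of 33.2 from highest to lowest. Leaving out 1 column lowered the H3 median to 31.4 TPM at the least. H4 ranged from 0.55 TPM through a median of 24.6 TPM to 58.2 TPM, a ratio of 105.9. Leaving out 1 column lowered that median to 13.8 TPM at the least, and without column 18, the lowest, the ratio was 58.2. The H3 level lay above the H4 level in all 23 columns, by 1.10 times in the column where they were closest, 2.0 times at the median and 7.91 times where they were farthest apart, in column 18. Without column 18 the largest of these ratios was 4.2.

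H2A and H2B, which pair as dimers on either side of that tetramer, were listed at much lower levels. The sum over the 20 H2A copies was 0 TPM in 4 columns, 4.56 TPM in the median column and 9.57 TPM in the highest, and the median fell to as low as 2.73 TPM with 1 column left out. The sum over the 23 H2B copies was 0 TPM in 3 columns, with a median of 2.79 TPM, as low as 1.68 TPM with 1 column left out, and a highest value of 5.06 TPM. H2A was higher than H2B in 18 of 23 columns, and H4 was higher than H2A in all 23 and than H2B in 22. A level listed at 0 in this table gives no upper limit, since it carries no read number.

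**Figure D1:**
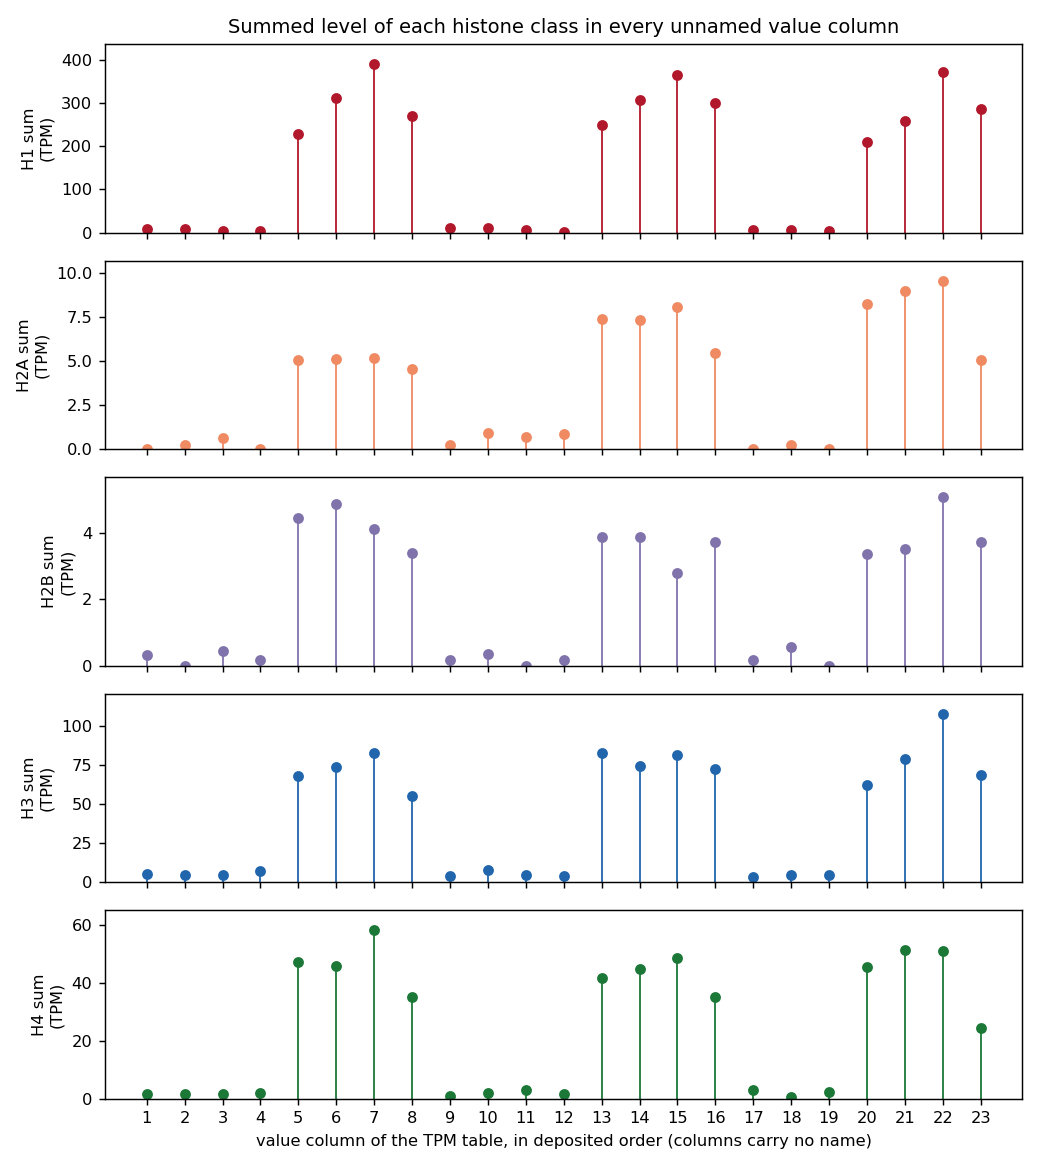
Summed TPM of the H1, H2A, H2B, H3 and H4 copies (vertical axes, 1 panel per class, each from 0) in each of the 23 unnamed value columns (horizontal axis, deposited order). Each point is 1 column; in the H1 panel no point lies between 10.0 and 210 TPM, and in the H3 panel none lies between 7.85 and 55.0 TPM.

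Within a column, H1 took 63.8% of the summed histone TPM at the median, with a range from 19.4% to 73.6%. The median shares were 21.6% for H3, 10.8% for H4, 1.43% for H2A and 1.01% for H2B. With 1 column left out, the H3 median ran from 20.7% to 24.7%. The highest shares reached by the core classes were 58.4% for H3, 25.7% for H4, 9.58% for H2A and 4.95% for H2B. They lay in columns 4, 17, 12 and 18 in turn, each with under 25 TPM of histone RNA in all. These shares are shares of listed RNA and not of protein, and in columns with under 25 TPM of histone RNA in all they rest on low levels. They can also depend on how many reads of near-identical copies were kept in each class, which was not tested. In the size-factor normalised counts the median H1 share was 93.5%.

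The range over columns was set beside that of other genes. Of 9039 rows with a median of at least 1 TPM, 21.7% had a highest column at least 10 times the lowest, a lowest value of 0 included, and the median ratio was 2.91. Ratios at least as high as that of the H1 sum occurred in 93 of these rows, as high as that of H4 in 199 and as high as that of H3 in 576. The set held 21 single histone copies, and all 21 were past the 10-fold mark. That count is no independent evidence, because most of these copies share the same listed values and they entered the set through the columns where they are high.

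Only some copies were listed with any of this RNA. Since copies are near-identical, the listing need not show which of them were transcribed. By TPM, 34 copies were above 0 in at least 1 column, 12 were above 0 in every column, and 77 were listed at 0 throughout. By class, 9 of 23 H1 copies, 3 of 20 H2A copies, 7 of 23 H2B copies, 5 of 23 H3 copies and 10 of 22 H4 copies were above 0 somewhere. These counts were not set beside the same counts over all rows, so they do not show how unusual the cluster is. Many of the copies that were above 0 had exactly the same TPM in every column. There were 8 such sets, of 2 to 5 copies each, and 6 of them were runs of neighbouring units.

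The H1 copies differed widely among themselves. The medians of single copies, like those of the sums, depend on the gap. Leaving out 1 column lowered the median of the highest H1 copies from 88.0 to 45.9 TPM at the least, and that of the highest H3 copies from 11.01 to 6.29 TPM. His1:CG31617, in unit 2 at 2L between 21421855 and 21422877, and His1:CG33813, in unit 6 between 21451052 and 21452074, were listed with equal TPM in every column. Each ranged from 0.81 TPM through a median of 88.0 TPM to 165 TPM, and each held 41.7% of all H1 TPM. His1:CG33801, the first gene of the cluster at 21416953 to 21417975, ranged from 0 TPM in 3 columns through a median of 10.6 TPM to 21.99 TPM. His1:CG33834 in unit 13 had a similar range, with a median of 6.72 TPM and a highest value of 25.5 TPM. The neighbours His1:CG33855, His1:CG33858 and His1:CG33861 in units 20 to 22 shared a median of 3.46 TPM and a highest value of 8.37 TPM. His1:CG33807 in unit 4 had a median of 0.17 TPM, and the remaining 15 copies had a median of 0.

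For H3, all of the listed TPM lay in 5 neighbouring copies of units 7 to 11, from His3:CG33818 to His3:CG33830, between 21459447 and 21480164. Each had 0.65 TPM in the lowest column, 11.01 TPM in the median column and 21.6 TPM in the highest, so that each held 20% of the class. The other 18 H3 copies were listed at 0. The same 5 units held nearly all of the H4 TPM. His4:CG33899, His4:CG33897, His4:CG33895, His4:CG33893 and His4:CG33891 each ranged from 0.11 TPM through 4.82 TPM to 11.6 TPM, and the remaining H4 copies reached at most 0.45 TPM, in His4:CG33869.

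The H2A TPM lay in 3 neighbouring copies of units 19 to 21, His2A:CG33853, His2A:CG33856 and His2A:CG33859, which shared a median of 1.52 TPM and a highest value of 3.19 TPM. For H2B, 56.6% of the TPM lay in His2B:CG33868 of unit 23, with a median of 1.68 TPM, and 28.4% in His2B:CG17949 of unit 2, with a median of 0.32 TPM. The copies with the highest median thus lay in units 7 to 11 for both H3 and H4, and in other units for H1, H2A and H2B.

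**Figure D2:**
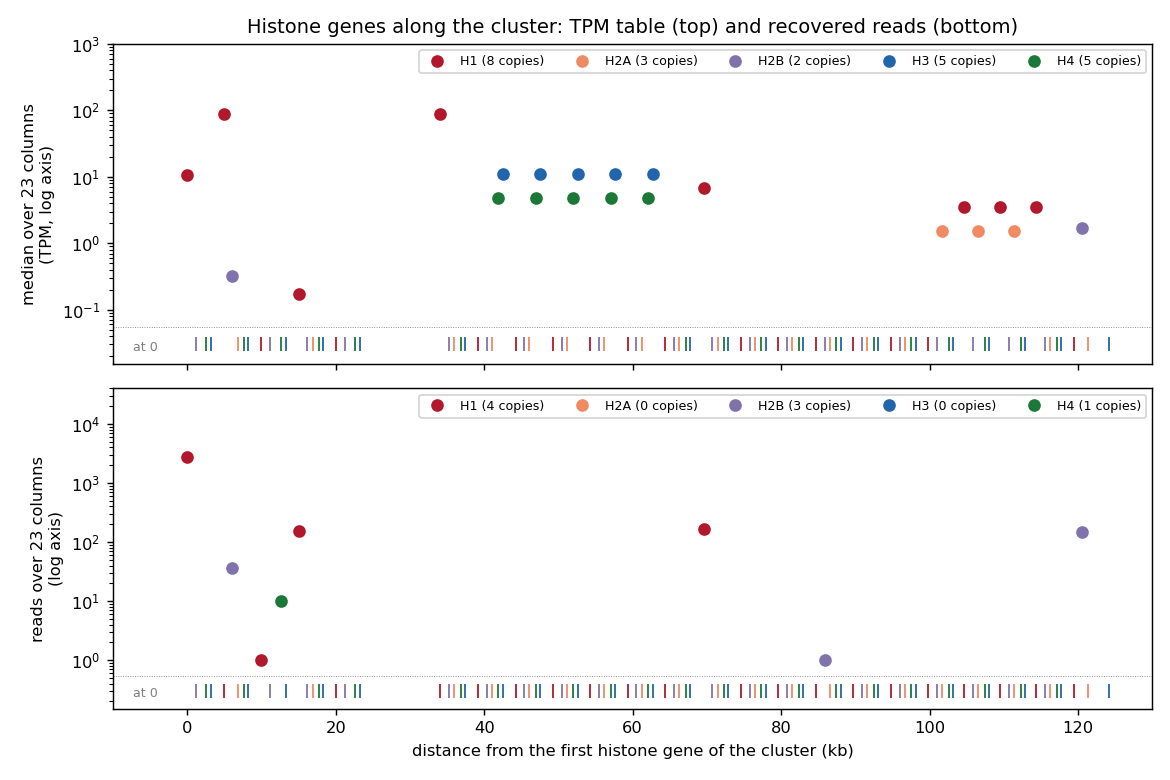
The annotated histone genes by distance in kb from the first gene of the cluster (horizontal axis), with the median TPM over 23 columns (top, log axis) and the reads summed over 23 columns (bottom, log axis). Dots are copies above 0 and ticks under the dotted line are copies at 0; 5 neighbouring H3 copies and 5 neighbouring H4 copies form level rows in the upper panel, while the lower panel shows 8 copies with reads, led by the first H1 gene.

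The second table, of gene counts divided by a size factor, gave a different picture of the same genes. Its values in every column were whole multiples of 1 read within 0.01 of a read, so the reads behind them were recovered. A column held between 11486981 and 34137622 reads in genes, and the 23 columns held 438718157 together. Only 8 histone copies had a read in any column, and 103 had none. Among all 17493 rows, between 11186 and 15346 had reads in a single column. All copies together held 3255 reads, of which 3059 were H1, 186 were H2B and 10 were H4. H2A and H3 had 0 reads in all 23 columns. By the 1-sided 95% limit for a count of 0, this allows about 3 reads over all columns, or 0.00684 RPM (reads scaled by the total in genes but, unlike TPM, not for gene length). This limit covers counting error alone and applies to reads that were counted, not to reads discarded earlier.

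Most counted histone reads lay in the first H1 gene. His1:CG33801 held 2738 of the 3255 reads, or 89.5% of those of H1, with 0 in the lowest column, 101 in the median column and 393 in the highest, a value that columns 6 and 7 shared. His1:CG33834 held 168 reads, His1:CG33807 held 152 and His1:CG33804 held 1. His1:CG31617 and His1:CG33813, the copies with the highest TPM, had no reads. For the whole H1 class the columns ranged from 0 to 451 reads, with a median of 108 that fell to as low as 57.5 with 1 column left out. The 2-sided 95% exact Poisson intervals were 0 to 3.69 reads for a column with none and 410 to 495 reads for the highest, column 6, so the range was far wider than the counting error. Scaled to depth, the H1 class ranged from 0 to 17.5 RPM.

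The H2B reads lay in His2B:CG33868, at 2L between 21537505 and 21538099, with 149 reads, in His2B:CG17949 with 36 and in His2B:CG33882 with 1. The highest column for the class, column 5, held 29 reads, with an exact Poisson interval of 19.4 to 41.6. All 10 H4 reads lay in His4:CG33907, with no more than 2 in a column, which at this depth shows no difference between columns. A read-based spread could thus be given for H1 and, less precisely, for H2B.

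**Figure D3:**
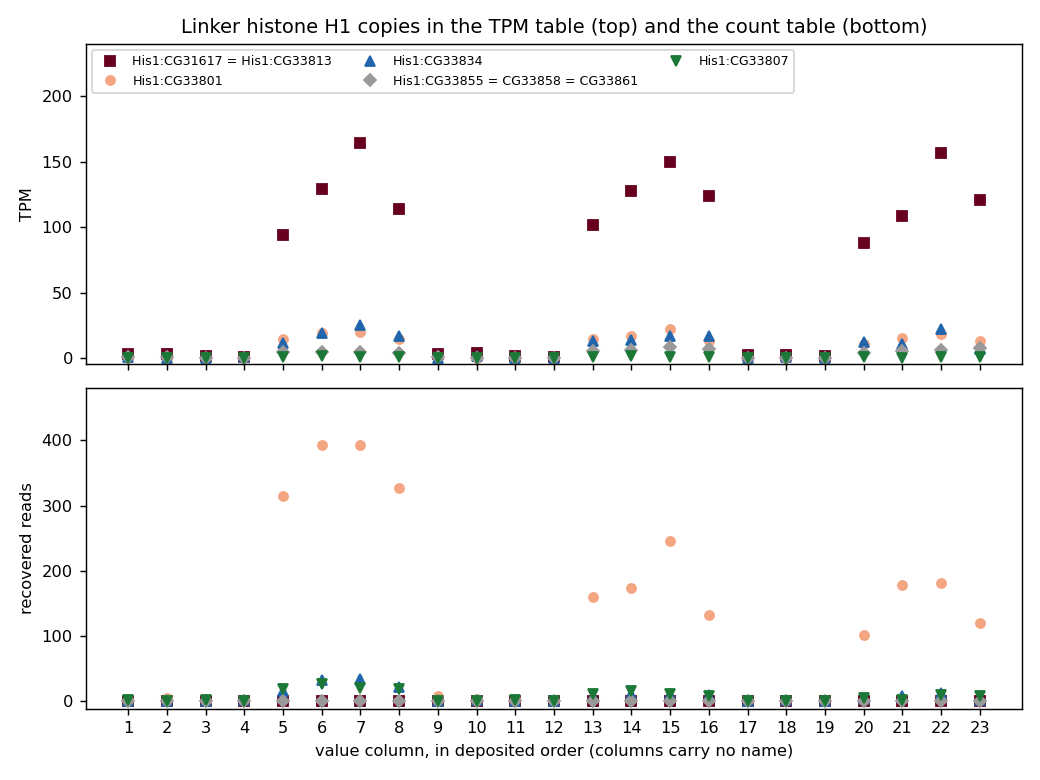
TPM (top) and recovered reads (bottom) of 5 representative H1 rows in each of the 23 unnamed columns (horizontal axis, deposited order); rows with equal TPM are drawn once. His1:CG31617 reaches 165 TPM with 0 reads, and His1:CG33801 reaches 393 reads with at most 21.99 TPM.

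The tables were put on a common scale by turning each TPM value into the reads it amounts to. This used the median reads per TPM and kb over 5148 to 5887 other genes of the same column, with at least 10 TPM and 100 reads each. It took columns with the same number in both tables as 1 library. After centring each gene on its mean, the TPM column with a given number correlated best with the count column of the same number in 23 of 23 cases, across 9039 genes. On this scale the H1 TPM amounted to 49949 reads over all columns, and 3059 were counted, or 6.12%. The H3 TPM amounted to 6771 reads and the H2A TPM to 523 reads, with none counted. The H4 TPM amounted to 3115 reads, with 10 counted, or 0.321%, and the H2B TPM to 401 reads, with 186 counted, or 46.4%.

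Single copies showed where the tables met and where they parted. For His1:CG33801 the TPM amounted to 2717 reads and 2738 were counted, and for His1:CG33807 to 150 reads with 152 counted. For His4:CG33907 the values were 9.73 and 10. For His1:CG33834 the TPM amounted to 2696 reads, while 168 were counted. For His1:CG31617 and His1:CG33813 the TPM amounted to 20820 reads each, with none counted. The tools that made each table and their handling of reads with several matching sites are not given a role in the sources used here, and their part in these differences was not tested.

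**Figure D4:**
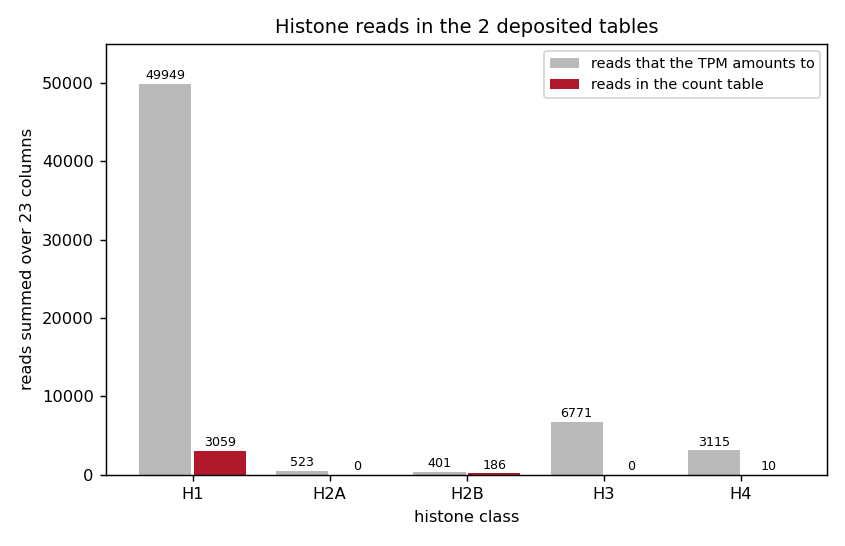
Reads summed over 23 columns (vertical axis, from 0) for each histone class (horizontal axis): the reads that the TPM values amount to (grey) and the reads in the count table (red). H1 stands at 49949 against 3059, H3 at 6771 against 0, and H2B at 401 against 186.

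Histone genes outside the cluster, which are expressed through the cell cycle and have polyadenylated messages, were listed at higher levels than the cluster for H2A, H3 and H4. No such gene was compared for H2B. In the cluster, 17 of 20 H2A copies, 18 of 23 H3 copies and 12 of 22 H4 copies were listed at 0 throughout. The cluster sums can be too low where reads of near-identical copies were discarded, which was not tested. His3.3A and His3.3B encode H3.3, the form of H3 deposited outside replication. Their summed level ran from 2109 TPM through 3032 TPM to 3484 TPM, and the H3 cluster sum was 0.0990% of it in the lowest column, 1.67% in the median column and 3.68% in the highest. That median share fell to as low as 0.969% with 1 column left out. His4r, on 3R, encodes the same H4 protein and was listed at 1644 to 2404 TPM, with a median of 1952 TPM. The H4 cluster sum was 0.0326% to 2.78% of that level, and the lowest share was 0.0582% without column 18. His2Av, also on 3R, encodes the H2A variant of flies and was listed at 991 to 1518 TPM, and the H2A cluster sum was at most 0.759% of it.

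By TPM, the linker histones stood the other way round. BigH1, the linker histone of the germline and the early embryo, was listed at 1.01 TPM in the lowest column, 2.22 TPM in the median column and 11.1 TPM in the highest. The H1 cluster sum was above BigH1 in all 23 columns, by 1.18 times in the closest, 24.4 times at the median and 312 times at the most. The median ratio fell to as low as 14.7 with 1 column left out, and without column 12 the closest ratio was 1.87. The counts divided by a size factor, which are not scaled for gene length, did not repeat this order in every column. There BigH1 was at 17.3 or above throughout, with a median of 33.1 against 159 for the H1 class. In columns 1 to 4, 9 to 12 and 17 to 19 the H1 class lay at 7.95 or below, and so under BigH1. Over all columns the counted H1 reads were 6.12% of those that the H1 TPM amounts to. His1:CG31617 and His1:CG33813, the copies with the highest TPM, had none counted. The order in the counts thus need not be that of the RNA levels. The genes outside the cluster varied less over the columns, with ratios of highest to lowest of 1.53 for His2Av, 2.08 for His3.3A, 1.54 for His3.3B and 1.46 for His4r, and of 10.96 for BigH1. The gene cid, which encodes the centromeric form of H3, ran from 14.6 to 48.0 TPM.

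Genes for other functions were compared over the same columns. RpL32, a ribosomal protein gene, ran from 1998 to 2500 TPM, and eIF4A, a translation initiation helicase, from 1884 to 2460 TPM. Slbp, whose product binds the histone stem-loop, ran from 101 to 306 TPM, and mxc, which encodes the scaffold of the histone locus body, from 29.8 to 68.7 TPM. Gapdh1, a glycolytic gene, varied more, from 2.73 to 22.4 TPM. The ratios of highest to lowest of the H1, H3 and H4 sums were above those of each of these genes.

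**Figure D5:**
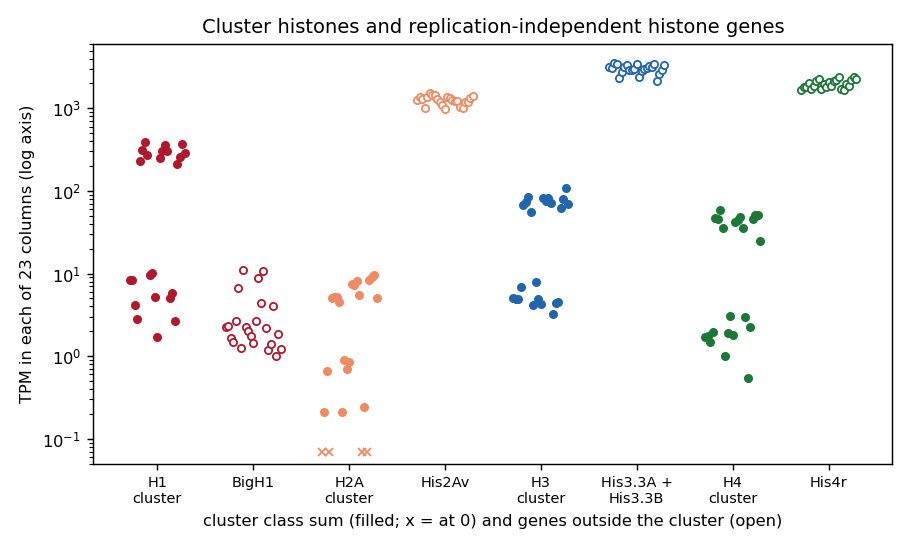
TPM in each of 23 unnamed columns (vertical axis, log) for the cluster sums of H1, H2A, H3 and H4 (filled points, crosses at the foot for a sum of 0) and for BigH1, His2Av, His3.3A plus His3.3B, and His4r (open points). The open points of His2Av, H3.3 and His4r all lie at or above 991 TPM, and the filled core points all lie at or below 108 TPM.

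The tissue label was checked against marker genes. All 12 embryo patterning genes, among them eve, en, twi and Ubx, had a median above 1 TPM, and their sum was 455 to 974 TPM. Of the 8 genes of larvae or adults, 3 had a median above 1 TPM, namely Yp3 at 1.28, Lcp1 at 2.28 and Amy-p at 2.79 TPM. The yolk protein genes Yp1 and Yp2 had medians of 0.25 and 0.07 TPM. The 8 summed to 1.74 to 29.3 TPM. Of 4 maternal genes, 3 were matched to a row by symbol, and their sum was 20.4 to 58.1 TPM.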

How the data were processed

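Total RNA from whole embryos was made into libraries with a kit for Drosophila RNA, per the labels' protocols, and fragmented as cDNA. Per the submitters' processing notes, RSEM 1.3.1, DESeq2, HTSeq 0.10, STAR 2.5.2b and FastQC 0.11.5 were used with the dm6 build, with no role given for any of them. The authors deposited a table of TPM and, by its title, a table whose signal is gene counts divided by a size factor per column. Neither has a header. All 46 value columns were used as unidentified whole embryo libraries, since no name ties one to a sample, and no test between groups was run. The title was used for the oldest age, since a label field gives another start.

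Members were matched through FlyBase identifiers and symbols, and positions came from Ensembl release 115, which has dm6 coordinates. The rule for members uses symbols alone, but it and the lists were chosen with earlier results of these data known. Size factors were recovered from the smallest steps of each column (0.664 to 1.98), and 100% of values above 0 came out whole. The recovery was tested on simulated data. Named copies are those with the highest and lowest median of a class, with others named after their values were seen. Python 3.11.15, pandas 2.3.3 and numpy 2.4.6 were used. Depths are those of reads in genes. Intervals are 2-sided exact Poisson at 95%, the limit for a count of 0 is 1-sided, and both cover counting error only. Alternatives were the other table, leaving out copies, pseudocounts of 1 and 0.1, the column total and stricter limits for a copy above 0. Leaving out each column in turn was added after the data were seen.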

Additional observations from a re-analysis of the deposited data

How the results depend on the processing

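Leaving out copies at 0 could not change a class median, since they add nothing to a sum. Leaving out the copy with the highest median lowered the H1 median to 122 TPM, the H2A median to 3.04 TPM, the H2B median to 1.11 TPM, the H3 median to 44.0 TPM and the H4 median to 19.7 TPM. In the size-factor normalised counts the class medians were 159 for H1, 6.71 for H2B, and 0 for H2A, H3 and H4, and the median H1 share of the histone sum was 93.5%. With each column left out in turn, chosen after seeing the data, the median ran from 110 to 219 TPM for H1, from 2.73 to 4.82 TPM for H2A, from 1.68 to 3.07 TPM for H2B, from 31.4 to 58.6 TPM for H3 and from 13.8 to 29.9 TPM for H4, since the median column borders a gap. The number of copies above 0 was 34 in the TPM table, 12 when every column had to be above 0, 23 above 1 TPM, and 8 in the count table. On the log2 scale, the range over columns of the H1 sum was 7.84 with no pseudocount, 7.76 with 0.1 and 7.18 with 1. For H2A it was 3.40 with a pseudocount of 1 and 6.60 with 0.1. Dividing by the column total could not change the 3 ratios of H1, H3 and H4, since TPM has the same total in every column. A wider calibration, chosen after seeing the data, moved the H1 reads that the TPM amounts to from 49949 to 50374.

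No paired analysis was possible because no column is tied to a replicate number. For the same reason the planned comparisons of genotype and age, with their alternatives, and any test on the recovered reads were not run. The planned search of copy and promoter sequences was not run either. Reads in the count table were few for H2B, H4, H2A and H3, at no more than 29, 2, 0 and 0 in a column, so it gives a spread mainly for H1.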

Other observations

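The columns fell into separate sets by the level of the cluster genes, although no column can be tied to a sample. For H1, 11 columns lay at 10.0 TPM or below and 12 at 210 TPM or above, with none between. The gap lay between 0.90 and 4.56 TPM for H2A, between 0.57 and 2.79 TPM for H2B, between 7.85 and 55.0 TPM for H3 and between 3.07 and 24.6 TPM for H4. The same 12 columns lay above the gap in all 5 classes. In the count table those columns held 108 to 451 H1 reads each, and the others held 0 to 7. This split was made from the measured levels, so it is no grouping of the study, no genotype or age was read from it, and nothing else was compared across it.

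Column by column, from 1 to 23, the H1 sum was 8.44, 8.33, 4.16, 2.83, 229, 311, 390, 270, 9.54, 10.0, 5.23, 1.70, 248, 306, 364, 299.9, 5.12, 5.80, 2.63, 210, 259, 373 and 285 TPM. In the same order the H3 sum was 5.10, 4.85, 4.95, 6.95, 68.2, 74.0, 83.2, 55.0, 4.2, 7.85, 4.90, 4.25, 82.9, 74.4, 81.6, 72.3, 3.25, 4.35, 4.50, 62.1, 79.2, 108 and 68.8 TPM. The H4 sum was 1.70, 1.75, 1.5, 1.94, 47.4, 46.0, 58.2, 35.3, 1.0, 1.90, 3.07, 1.81, 41.6, 44.8, 48.7, 35.3, 2.95, 0.55, 2.25, 45.6, 51.3, 51.0 and 24.6 TPM. The H2A sum was 0, 0.21, 0.66, 0, 5.07, 5.13, 5.16, 4.56, 0.21, 0.90, 0.69, 0.84, 7.38, 7.35, 8.07, 5.46, 0, 0.24, 0, 8.25, 8.97, 9.57 and 5.07 TPM. The H2B sum was 0.32, 0, 0.45, 0.18, 4.43, 4.86, 4.10, 3.40, 0.17, 0.36, 0, 0.17, 3.88, 3.87, 2.79, 3.71, 0.18, 0.57, 0, 3.35, 3.50, 5.06 and 3.72 TPM.

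Pseudogenes of the cluster, which the rule left out by their symbols, were listed above the 20 H2A genes together in 17 of 23 columns. The H2A TPM came from 3 of the 20 copies, none with a counted read, and can lack discarded reads. Some of these columns were near the floor, as in column 1 with 0.11 against 0 TPM. The 4 pseudogenes lay in units 1, 3, 5 and 23, where the H2A or H4 gene is not annotated. Their sum ran from 0 TPM through a median of 16.9 TPM to 44.1 TPM. His-Psi:CR33802 in unit 1 and His-Psi:CR33811 in unit 5 had equal TPM in every column, with a median of 7.53 TPM and no reads in the count table. His-Psi:CR33805 in unit 3 had a median of 1.14 TPM, with 12 reads in the median column and 24 in the highest. All 20 non-coding RNA genes annotated in the cluster span were at 0 in both tables.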
